A study of Mus musculus with 56 samples.

Results

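Acetylated regions of mouse liver chromatin that lie alone in the genome are described here. They were drawn from a single list of regions carrying acetylated histone H3 (H3K27Ac or H3K9Ac), on genome build mm9. A region was taken as isolated when it was shorter than 15 kb and when no other region of the list lay within 100 kb of either edge. Of 37200 regions, 1264 (3.40%) met this rule, while 34957 regions under 15 kb had a neighbour within that distance and 979 regions were 15 kb or longer. Members were thus selected on the positions and lengths of the called regions, so the number, the size and the distance to the neighbours are given as a description with no test.

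Acetylation of lysine 27 and lysine 9 of histone H3 marks active promoters and enhancers, and enhancers of highly active genes often lie in dense clusters. In liver, thyroid hormone (T3) acts through thyroid hormone receptors, which bind DNA as heterodimers with the retinoid X receptor, typically at a direct repeat of the half-site AGGTCA spaced by 4 bases (DR4). Without hormone the receptor recruits corepressors such as NCOR1 and the histone deacetylase HDAC3.

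RNA-seq was available from the livers of male mice in 3 groups with 4 replicate libraries each, labelled as independent biological replicates. Hypothyroid WT mice received propylthiouracil (PTU) in a low iodine diet, hyperthyroid WT mice (PTU_T3) received the same diet and injections of T3, and L-NCORdeltaID mice were kept hypothyroid with PTU. L-NCORdeltaID mice express, in the liver, an NCOR1 that lacks receptor interaction domains, and they were kept on a mixed strain background. All 3 groups thus shared PTU, and both comparisons shared the hypothyroid WT libraries. The region list pools both histone marks and gives no values per library, so acetylation was not compared between the groups. No total read counts were used: from the smallest RPKM steps, depth relative to hypothyroid WT replicate 1 was 0.683 to 0.83 for the hyperthyroid, 0.927 to 1.22 for the hypothyroid WT and 1.22 to 1.37 for the L-NCORdeltaID libraries. Correlation of log2 levels between libraries of a group ranged from 0.985 to 0.993. The summed RPKM of 6 hepatocyte markers ranged from 20134 to 49754 per library, against at most 5.36 for 5 neuronal markers. Ncor1 was at 14.7 ± 0.665 RPKM in hypothyroid WT and 13.0 ± 0.844 in L-NCORdeltaID livers, a level that does not show the loss of single exons.

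The 200 bases upstream of the gene start are shown for the 6 genes named below by the size of their called change and for the most highly expressed gene, so that their composition can be compared. Capitals mark exact matches on either strand to GGGCGG (SP/KLF), CCAAT (NFY), TTGCNCAA (C/EBP) or TGTTTAC (forkhead), and all are written 5' to 3' on the strand of the gene from the mm9 genome.
Cxcl12, chr6:117118353-117118552, plus strand: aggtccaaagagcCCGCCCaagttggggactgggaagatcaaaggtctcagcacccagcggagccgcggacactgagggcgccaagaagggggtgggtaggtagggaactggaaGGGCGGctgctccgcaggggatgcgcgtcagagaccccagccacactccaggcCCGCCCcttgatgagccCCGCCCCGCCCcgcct
Uqcrfs1, chr13:30637232-30637431, minus strand: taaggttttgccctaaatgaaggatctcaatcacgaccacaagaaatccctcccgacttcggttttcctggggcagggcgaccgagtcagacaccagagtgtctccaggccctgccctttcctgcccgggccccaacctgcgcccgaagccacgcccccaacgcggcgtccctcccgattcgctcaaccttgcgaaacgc
Rcan2, chr17:43938600-43938799, plus strand: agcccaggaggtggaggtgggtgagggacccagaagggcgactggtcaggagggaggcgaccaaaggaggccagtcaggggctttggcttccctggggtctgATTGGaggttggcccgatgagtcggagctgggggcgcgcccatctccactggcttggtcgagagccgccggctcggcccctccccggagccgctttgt
Timd4, chr11:46624102-46624301, plus strand: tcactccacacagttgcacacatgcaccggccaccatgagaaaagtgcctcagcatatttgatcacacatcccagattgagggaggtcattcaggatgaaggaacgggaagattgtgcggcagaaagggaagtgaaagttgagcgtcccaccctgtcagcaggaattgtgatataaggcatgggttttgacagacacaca
Slc22a27, chr19:8040518-8040717, minus strand: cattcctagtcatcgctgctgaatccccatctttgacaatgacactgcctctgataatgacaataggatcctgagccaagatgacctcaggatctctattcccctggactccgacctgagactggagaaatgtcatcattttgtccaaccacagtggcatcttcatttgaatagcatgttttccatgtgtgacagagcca
1810011H11Rik, chr14:33598949-33599148, plus strand: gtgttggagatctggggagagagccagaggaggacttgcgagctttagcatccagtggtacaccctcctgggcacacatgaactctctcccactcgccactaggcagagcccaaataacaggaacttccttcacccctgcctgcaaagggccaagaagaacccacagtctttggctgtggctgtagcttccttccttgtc
Krt23, chr11:99354452-99354651, minus strand: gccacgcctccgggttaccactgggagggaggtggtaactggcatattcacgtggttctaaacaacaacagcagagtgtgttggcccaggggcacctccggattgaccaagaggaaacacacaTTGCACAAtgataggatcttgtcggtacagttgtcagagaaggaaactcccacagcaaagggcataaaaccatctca
The stretches at Cxcl12, Uqcrfs1 and Rcan2 were rich in G and C (68.5%, 61.5% and 68.5%) and held 13, 16 and 12 CpG dinucleotides. Those at Timd4, Slc22a27 and Krt23 held 4, 2 and 5. That at 1810011H11Rik had 55.5% GC but only 2 CpG dinucleotides. For comparison far from genes, the central 200 bases are shown of the region with the most distant neighbour and of the region farthest from any gene start, both on the plus strand.
Most isolated region, chr5:57300815-57301014, plus strand: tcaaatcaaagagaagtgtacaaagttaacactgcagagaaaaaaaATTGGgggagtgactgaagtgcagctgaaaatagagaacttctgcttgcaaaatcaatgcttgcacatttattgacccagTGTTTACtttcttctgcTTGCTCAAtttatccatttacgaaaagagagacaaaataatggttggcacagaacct
Region farthest from a gene start, chr3:42702837-42703036, plus strand: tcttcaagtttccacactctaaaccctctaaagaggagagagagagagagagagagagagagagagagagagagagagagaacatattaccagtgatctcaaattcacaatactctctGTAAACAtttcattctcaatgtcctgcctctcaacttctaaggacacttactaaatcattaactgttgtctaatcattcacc
These held 1 and 0 CpG dinucleotides at 37.0% and 39.0% GC, and each had a forkhead match.

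Isolated regions were short. Their mean length was 2188 bp (SD 1280 bp between regions) and their median 1865 bp, against a median of 2516 bp for other regions under 15 kb. A length of exactly 1000 bp was found for 171 isolated regions (13.5%) and 8.37% of other regions under 15 kb. The longest spanned 9602 bp at chr5:148240773-148250374 and held the start of Pan3, a subunit of the poly(A) nuclease. The next longest, 9509 bp at chr9:85213243-85222751, held the start of Fam46a. No isolated region thus came near the length limit, and the only region of 15 kb or more without a neighbour was the 16806 bp region over the complement genes C1qa, C1qb and C1qc at chr4:136438818-136455623. Together the isolated regions covered 2.77 Mb of 145 Mb of acetylated sequence.

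The median distance from an isolated region to the nearest other region was 178715 bp, with quartiles of 125802 and 301031 bp. Other regions under 15 kb had their nearest neighbour at a median of 6620 bp. The regions just inside the limit lay 100109 bp (chr8:96334084-96335083, 218 bp from the start of Gnao1) and 100129 bp (chr1:73574433-73575738) from a neighbour. Those just outside lay at 99915 bp (chrX:54022319-54027032, in an intron of Fhl1) and 99717 bp (chr10:124597296-124602382). The largest distance, 2544986 bp, belonged to chr5:57300135-57301693, whose nearest protein-coding gene was the protocadherin Pcdh7, at 807567 bp. It was followed by 2493329 bp for chr1:113760447-113762082, which held the start of Dsel, and 2272894 bp for chr14:96326834-96328777, which lay 46349 bp from 4921530L21Rik. Dsel was at 0.167 ± 0.0792 RPKM (SD, n = 4) in hypothyroid WT liver, and 4921530L21Rik was listed at 0 in all 12 libraries. Isolated regions often followed each other along a chromosome, since 706 of them (55.9%) had another isolated region as the next region on at least 1 side.

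On the X chromosome, 86 of 767 regions (11.2%) were isolated, against 3.23% of the regions on autosomes. Among the autosomes the share ranged from 1.67% on chromosome 19 and 1.72% on chromosome 11 to 5.14% on chromosome 3. Per length of chromosome the X did not stand apart in isolated regions, with 51.6 per 100 Mb, within the autosomal range of 35.9 to 62.7. It did so in all regions, with 4.60 per Mb against at least 11.2 per Mb on each autosome. Of the isolated regions on the X, 46 (53.5%) held a gene start, against 17.5% to 40.9% on single autosomes. The Y chromosome had 1 isolated region of 28. These shares are descriptions, since regions of 1 chromosome are not independent.

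**Figure D1:**
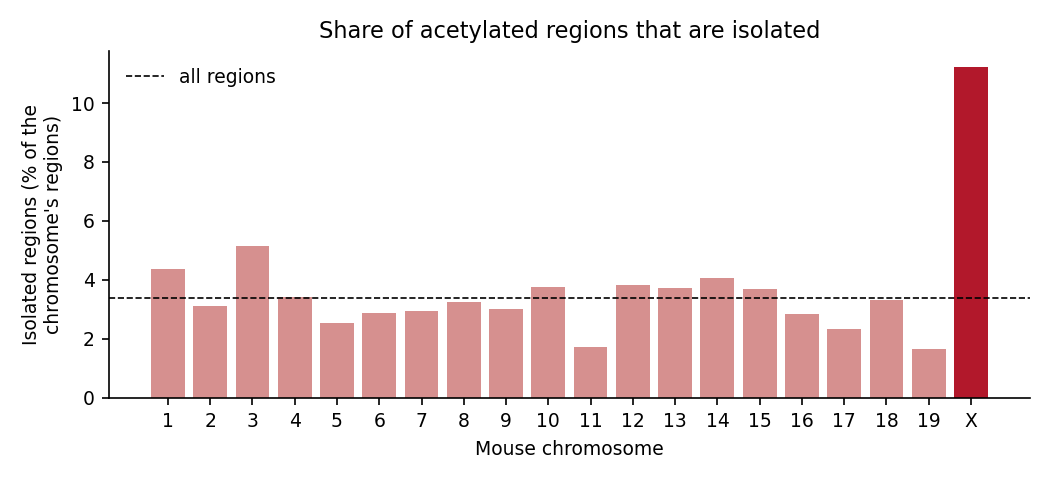
Share of each mouse chromosome's acetylated regions that are isolated, in percent, with the share over all regions as a dashed line. The X chromosome reaches 11.2%, while the autosomes lie between 1.67% and 5.14%.

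Isolated regions held a gene start about as often as other regions under 15 kb but otherwise lay farther from genes. A gene start lay within 396 of 1264 isolated regions (31.3%). The share was 29.2% for other regions under 15 kb and 69.3% for regions of 15 kb or more. These shares are given without a test, since neighbouring regions are not independent. The distances that follow depend in part on the rule, since a start within 100 kb cannot lie in another acetylated region. The median distance to the nearest gene start was 25219 bp for isolated regions and 10126 bp for other regions under 15 kb. Without the regions that hold a start, these medians were 67784 bp and 20232 bp. More than 100 kb separated 345 isolated regions (27.3%) from any gene start, against 6.17% of other regions under 15 kb. By the position of the centre, 45.2% of isolated regions were intergenic, 32.7% intronic, 12.8% in a promoter (from 1000 bp before a start to 100 bp past it) and 9.34% exonic. For other regions under 15 kb these shares were 30.9%, 50.4%, 9.56% and 9.14%.

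**Figure D2:**
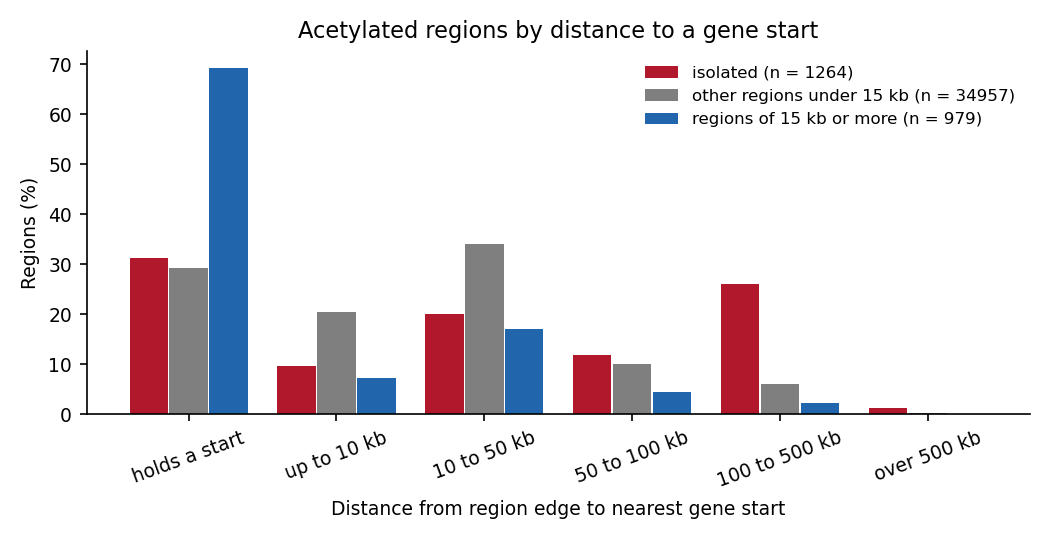
Percent of isolated regions, other regions under 15 kb and regions of 15 kb or more in each class of distance from the region's edge to the nearest gene start. In the class beyond 100 kb but not over 500 kb, isolated regions number 329 of 1264, against 6.04% and 2.15% of the other classes.

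The neighbourhood of isolated regions was poor in genes. Within 100 kb of an isolated region the median number of protein-coding gene starts was 1, against 3 for other regions under 15 kb, and 582 isolated regions (46.0%) had none, against 11.6%. Part of this difference is fixed by the rule, since no start in another acetylated region can lie within that distance. The size of that part was not tested. Of the 868 isolated regions without a gene start, 273 lay inside a protein-coding gene, and the median length of that gene was 315582 bp, against 101113 bp for other regions under 15 kb. The regions farthest from any gene start were chr3:42701874-42703999 (1025492 bp), chr3:42479692-42482019 (933159 bp) and chr12:48934485-48935506 (725452 bp). The first was nearest to a 7SK RNA gene, the second to D3Ertd751e and the third to Gm1818. Stretches of unknown sequence bear on few of the distances, since more than 1% of the bases within 100 kb were unknown for 29 isolated regions (2.29%) and for 1.25% of other regions under 15 kb.

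Base composition separated isolated regions with and without a gene start. In the central 800 bases, those with a start had a median GC content of 59.3% and a median observed over expected CpG ratio of 0.739, while those without had 42.3% and 0.183. For other regions under 15 kb the contrast was smaller, 54.4% and 0.581 with a start against 45.6% and 0.209 without. A GC content above 50% together with a CpG ratio above 0.6, the composition of CpG islands, was found in 260 of the 396 isolated regions with a start (65.7%), in 45.6% of other regions under 15 kb with a start and in 2.95% of regions of 15 kb or more with a start. Without a start it was found in 33 isolated regions (3.80%). Regions with a start were also longer, with a median of 2300 bp against 1650.5 bp. The median with a start was 3513 bp in other regions under 15 kb and 20251 bp in regions of 15 kb or more. In longer regions the central 800 bases can miss the gene start. Over whole regions with a start, median GC content and CpG ratio were 51.1% and 0.604 in isolated regions. They were 49.6% and 0.480 in other regions under 15 kb, and 47.2% and 0.261 in regions of 15 kb or more. The part of the window in these contrasts was not tested.

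**Figure D3:**
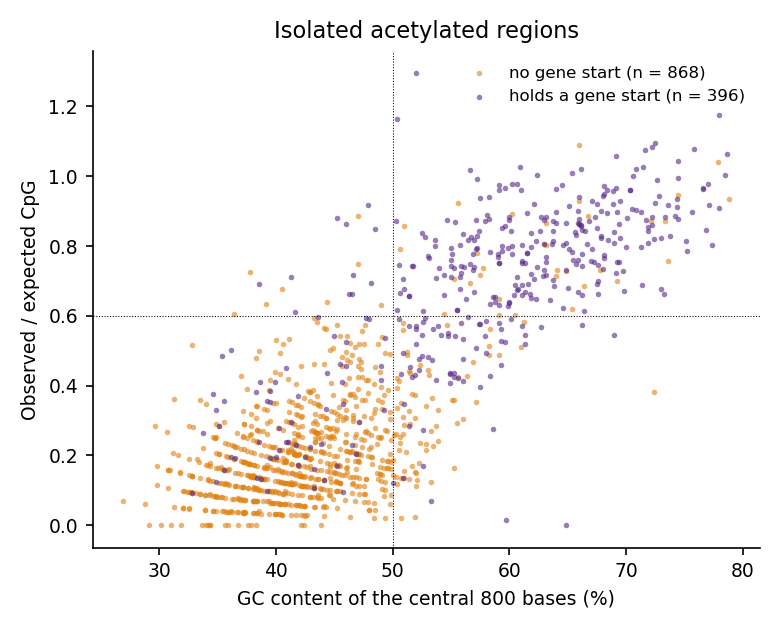
GC content in percent against the observed over expected CpG ratio of the central 800 bases, 1 point per isolated region, coloured by whether it holds a gene start. Dotted lines mark 50% and 0.6, and 260 of the 396 regions with a start lie above both, against 33 of the 868 regions without.

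Several short motifs, searched on both strands of the same 800 bases, followed this split. GGGCGG, bound by SP and KLF factors, was present in 73.2% of isolated regions with a start and 12.3% of those without, against 56.3% and 15.4% of other regions under 15 kb. The CRE TGACGTCA was present in 4.29% and 0.576%, and the ETS motif CCGGAAGT in 8.08% and 0.346%. In contrast, TGTTTAC, the motif of forkhead factors such as the hepatocyte factors FOXA, was present in 6.31% of isolated regions with a start and 19.2% of those without, against 14.4% of other regions under 15 kb without a start. The C/EBP motif TTGCNCAA was likewise present in 15.1% of isolated regions without a start and 10.9% of other regions under 15 kb without one. CCAAT, which is short and can overlap the C/EBP motif, was present in 67.5% of isolated regions and 63.6% of other regions under 15 kb. Its share was 56.1% in isolated regions with a start and 72.7% in those without. GGGCGG is itself rich in G and C and TGTTTAC in A and T, so that their shares move with the base composition given above. The share of GGGCGG can also depend on whether the central window covers the gene start. No isolated region held an exact direct repeat of AGGTCA spaced by 1 base, which was present in 0.260% of other regions under 15 kb.

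DR4 matches with at least 11 of the 12 half-site bases were present in 18 isolated regions (1.42%) and in 386 of the 34957 other regions under 15 kb. One region matched all 12 bases, and 17 of the 18 held no gene start. They are shown for this full match, for the region at the start of Timd4 and for 3 other regions, named after their values were seen. Capitals mark the half-site bases that match.
Phex intron, chrX:153772860-153772875, minus strand: AGGTCAggccAGGTCA
Timd4, chr11:46625297-46625312, plus strand: AGGTCAacccAGGTCt
Dcn, chr10:96945351-96945366, plus strand: AGGTCAgaagAtGTCA
near Ptpru, chr4:131278445-131278460, minus strand: AGGTCAccaacGGTCA
near Ppargc1a, chr5:51432204-51432219, minus strand: AGGTCAccagAGGgCA
The full match lay in chrX:153771924-153773802, within Phex, a gene listed below 0.01 RPKM in every library. Of the 18 nearest genes with RPKM values, 8 were tested for T3 and 1 passed, Timd4. Over all genes tested 11.8% passed in either direction, so that 1 of 8 was near this background. The site at Timd4 lay 1003 bp from the gene start. The region at Dcn, which encodes the proteoglycan decorin, began 129 bp inside the gene. Dcn was at 43.5 ± 6.25 RPKM in hypothyroid and 64.5 ± 4.01 in hyperthyroid WT (n = 4 each). Its log2 fold change of 0.58 was under the required size (limma adjusted p = 0.0021). Ptpru lay 114130 bp from its region, and its log2 fold change of 0.94 was also under the required size (adjusted p = 0.0063). Ppargc1a lay 525927 bp away and did not pass (log2 fold change -0.91, adjusted p = 0.016). Atp23, 209126 bp from its region, was lower after T3 but under the required size (log2 fold change -0.59, limma adjusted p = 0.0032). A match of these letters is a description and does not show binding.

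Genes that start in an isolated region were expressed at lower levels than those in the other classes of region, but above those that start in no region. The RPKM table placed 410 genes there, 10962 in other regions under 15 kb, 817 in regions of 15 kb or more and 9530 in no region. Their median level was 0.896 RPKM in hypothyroid WT (0.842 to 0.987 over the 4 libraries), 1.23 in hyperthyroid WT (1.15 to 1.28) and 1.07 in L-NCORdeltaID liver (0.976 to 1.11). Genes starting in other regions under 15 kb had medians of 4.22, 5.05 and 4.39 RPKM, and those in regions of 15 kb or more 22.8, 27.8 and 22.3. In each of the 12 libraries the 3 classes stood in this order without overlap. A mean of at least 10 RPKM over the 12 libraries was reached by 54 of the 410 genes (13.2%), against 30.6% and 73.9% of the genes in the other classes of region. At least 1 RPKM was reached by 52.4% of the 410 genes and by 7.93% of those that start in no region. The median of the latter was 0 RPKM in each group. The 410 genes were long, with a median span of 50154 bp against 20937 bp in other regions under 15 kb.

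**Figure D4:**
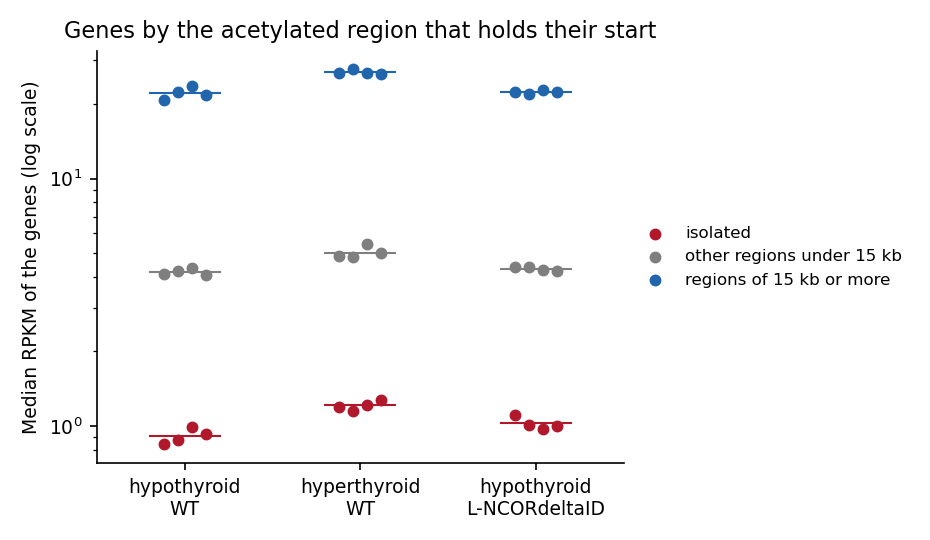
Median RPKM per library (points, log scale) of genes that start in isolated regions, other regions under 15 kb and regions of 15 kb or more, with the mean of the 4 library medians as a line. The isolated class lies between 0.842 and 1.28 RPKM in every library, below both other classes.

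Of the 6 most highly expressed of these genes, Uqcrfs1, the Rieske iron-sulfur protein of respiratory complex III, came first. It had a mean of 133 RPKM over 12 libraries and was the only one of the 410 genes above 100 RPKM. Its level was 119 ± 5.67 in hypothyroid WT, 154 ± 8.65 in hyperthyroid WT and 126 ± 5.03 in L-NCORdeltaID liver (SD, n = 4 each). Its T3 libraries lay above all others, at 144 to 163 RPKM, but the change missed the required size (log2 fold change 0.38, adjusted p = 0.0022). With each library scaled by the median of gene ratios, the log2 fold change was 0.14 (limma adjusted p = 0.16). Ndufa10, of respiratory complex I, followed with 91.0 RPKM. Pdha1, the catalytic subunit of pyruvate dehydrogenase, had 55.9 RPKM, and rose from 46.3 ± 2.88 to 67.9 ± 2.32 after T3 without reaching the size rule (log2 fold change 0.55, adjusted p = 0.00021). The same scaling gave a log2 fold change of 0.32 (limma adjusted p = 0.004). Sem1, a small subunit of the proteasome lid, Maged1 and the vesicle transport GTPase Rab2a had 53.8, 52.8 and 46.1 RPKM, and none of the 3 passed either test.

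Of 39 listed hepatocyte genes, 29 started in regions of 15 kb or more, 10 in other regions under 15 kb and 0 in an isolated region. Of 20 known T3 target genes, 5 and 13 did so, and 2 started in no region. Over all 21719 placed genes 1.89% started in an isolated region, so that counts of 0 in short lists are near this background. None of 101 cytochromes P450, 63 serpins, 20 glucuronosyltransferases, 48 proteasome genes named Psm, 83 cytosolic ribosomal protein genes, 40 Hox, 56 Usp, 22 Fgf, 20 interferon, 1107 olfactory receptor or 328 vomeronasal receptor genes did. Zinc finger genes named Zfp (8 of 370), solute carriers (8 of 368), cadherins (2 of 60), complex I (2 of 45), mitochondrial ribosomal proteins (2 of 78), Rab (2 of 70), Tmem (4 of 239), and 1 each of Kcn, keratin, Ube2 and Dnaj genes did. All olfactory and vomeronasal receptor genes, 33 of the 40 Hox and 19 of the 20 interferon genes started in no acetylated region of any class. Of the 83 cytosolic ribosomal protein genes, 77 started in other regions under 15 kb. Among markers of cell types, Timd4 of 7 Kupffer cell markers was the only one to start in an isolated region, with 0 of 7 sinusoidal endothelial, 7 stellate cell, 5 cholangiocyte, 7 lymphocyte, 5 neuronal, 3 muscle and 3 erythroid markers.

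After T3, 23 genes that start in isolated regions rose and 1 fell among the 345 that passed the filter on low values, while 65 of the 410 were too low to be tested. A gene had to reach a limma adjusted p below 0.01 and to change by more than 1 on the log2 scale. Over all 13941 genes tested, 8.28% rose and 3.47% fell (11.8% in either direction), so that the share of rising genes in isolated regions (6.67%) was near this background. Of the 345 genes, 5 were under 0.1 RPKM in every hypothyroid WT library and passed the filter only through the hyperthyroid libraries, and 4 of these are among the 23 (Slc22a27, Auts2, Mpped2 and Nuf2). Without such genes 19 of 340 rose (5.59%), against 7.88% of all genes tested. The single gene that fell corresponded to 0.29%, against 2.93% in other regions under 15 kb. The median log2 fold change was 0.30 in isolated regions and 0.23 over all genes tested, both on the log2(RPKM + 0.1) scale, which understates the change of low genes. Scaling each library by the median of gene ratios moved the overall median to 0.01 and that of isolated regions to 0.10, and 13 genes rose and 2 fell. Over all genes 758 then rose and 674 fell, in place of 1155 and 484. The summed level of the 6 hepatocyte markers was 38165 to 49754 RPKM in hypothyroid WT and 20134 to 28270 in hyperthyroid WT, and its part in the RPKM scale was not tested. For 13 of the 410 genes the annotated gene start lay, in the median, over 100 kb from the starts of its transcripts. Without them 21 genes rose, Auts2 and Fgfr2 being the others. Of the 21, a minority of the transcripts started in the region for Mpped2 (1 of 6), Fam184a (2 of 8), Ppip5k2 (2 of 7) and Cd86 (2 of 5). For the rest of the 21 most transcripts did.

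The largest rise was that of Slc22a27, a member of the organic anion transporter family in a cluster of similar genes whose reads may be shared. Its values were 0.089, 0.06, 0.08 and 0.085 RPKM in hypothyroid WT, 9.83, 9.82, 6.24 and 7.001 in hyperthyroid WT, and 0.149, 0.098, 0.12 and 0.06 in L-NCORdeltaID liver. Both hypothyroid groups reached at most 0.149 RPKM. The separation from hypothyroid WT was fixed by the filter, since all 4 hyperthyroid libraries had to reach 0.1 RPKM for a test. The log2 fold change was 5.52, given without its p-value because the gene was tested only through the group where it is high. The gene started in the 6220 bp region chr19:8038107-8044326, at 32.8% GC in its centre. In the 4 fits that omitted a hyperthyroid library it fell under the filter and was not tested. The 4 fits that omitted a hypothyroid one kept it only through the same hyperthyroid libraries, so they add no support.

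Timd4, a phosphatidylserine receptor of resident macrophages, started in chr11:46623756-46626167. It was at 2.44, 1.39, 1.39 and 1.23 RPKM in hypothyroid WT and at 8.36, 5.92, 8.71 and 7.99 in hyperthyroid WT. Its log2 fold change was 2.23 (SE 0.21, limma adjusted p = 6.4e-05). In L-NCORdeltaID liver it was at 1.44, 3.85, 1.40 and 0.938 RPKM, and its groups overlapped (log2 fold change 0.08, adjusted p = 0.93). All 7 Kupffer cell markers rose after T3, and their summed level was 43.6 to 62.3 RPKM in hypothyroid WT, 138 to 227 in hyperthyroid WT and 48.3 to 132 in L-NCORdeltaID liver. No marker of the list was at 0 in all libraries, and in these whole-liver samples more cells of a type and more RNA per cell cannot be told apart. The part of the cell makeup in the rise of Timd4 was not tested.

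The uncharacterised gene 1810011H11Rik rose from 0.202 ± 0.0319 to 1.20 ± 0.0693 RPKM (log2 fold change 2.11, SE 0.14, adjusted p = 1.2e-05), with 0.16 to 0.233 in hypothyroid and 1.15 to 1.30 in hyperthyroid WT. Rcan2, a regulator of calcineurin known as a thyroid hormone responsive gene, was at 0.85, 0.837, 1.25 and 1.06 RPKM in hypothyroid WT and at 5.71, 5.50, 2.497 and 3.63 in hyperthyroid WT (log2 fold change 1.96, SE 0.26, adjusted p = 0.00037). In L-NCORdeltaID liver it was at 2.91, 2.02, 1.88 and 2.04 RPKM, above all hypothyroid WT libraries, but did not pass the threshold (log2 fold change 1.07, SE 0.18, adjusted p = 0.012).

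The other 19 genes that rose, named here after their values were seen, had log2 fold changes from 1.001 to 1.73. Of these, 7 stayed under 1 RPKM after T3. Trhde, the enzyme that degrades thyrotropin-releasing hormone, rose from 2.02 ± 0.567 to 5.64 ± 0.276 RPKM. Lgr5, a receptor for R-spondins, rose from 0.682 ± 0.0910 to 2.04 ± 0.454, and Cd86, a costimulatory molecule of antigen-presenting cells, from 0.467 ± 0.106 to 1.19 ± 0.274. Smc6, a member of the SMC family of chromosome proteins, rose from 3.76 ± 0.337 to 8.82 ± 0.775. The chromatin factor Jarid2 rose from 2.03 ± 0.136 to 4.91 ± 0.276, the GTPase Rab12 from 7.41 ± 0.338 to 16.5 ± 2.05, the haem lyase Hccs from 4.52 ± 0.700 to 9.88 ± 1.04 and the inositol pyrophosphate kinase Ppip5k2 from 11.5 ± 1.31 to 23.3 ± 3.34. The remaining genes were Dbf4, Cdca7, Nuf2, Fgfr2, Auts2, Med12l, Mpped2, Galnt18, Fam184a, Gm5150 and Ccdc68. Gm5150, Mpped2, Dbf4, Fgfr2, Nuf2, Galnt18, Ppip5k2 and Med12l missed the call in at least 1 fit that omitted a library, and Auts2, Mpped2 and Nuf2 were not tested in the 4 fits that omitted a hyperthyroid one. With scaling by the median of gene ratios, Ccdc68, Cd86, Dbf4, Fgfr2, Galnt18, Hccs, Med12l, Ppip5k2, Rab12 and Smc6 missed it.

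Krt23, a type I keratin, was the gene that fell. It was at 7.90, 4.07, 4.38 and 7.41 RPKM in hypothyroid WT, at 0.104, 0.675, 2.69 and 0.2 in hyperthyroid WT and at 1.47, 2.76, 1.68 and 0.572 in L-NCORdeltaID liver. Hypothyroid WT livers were the highest in both comparisons, with a log2 fold change of -3.26 after T3 (SE 0.71, adjusted p = 0.005) and of -1.93 in L-NCORdeltaID liver (SE 0.41, adjusted p = 0.035, not past the threshold). The T3 call was lost when any of the 4 hypothyroid WT libraries or hyperthyroid WT replicate 4 was omitted, and also with the replicate number as a block (0 genes fell).

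In hypothyroid L-NCORdeltaID liver, 0 of 340 tested genes that start in isolated regions rose and 1 fell at a limma adjusted p under 0.01, against 0.725% and 0.544% (1.27% in either direction) of all 13790 genes tested. At an unadjusted p under 0.05, 33 genes were higher and 14 lower (13.8% of 340), against 1759 and 1072 of all genes tested (20.5%). The gene that fell was Cxcl12, which encodes the chemokine that binds CXCR4. It was at 66.1, 56.0, 53.9 and 60.3 RPKM in hypothyroid WT and at 31.2, 31.9, 25.9 and 25.1 in L-NCORdeltaID liver (log2 fold change -1.05, SE 0.10, adjusted p = 0.0011), and it passed in all 8 fits without 1 library. Hyperthyroid WT livers lay at 40.5, 31.2, 37.1 and 40.3 RPKM, also below every hypothyroid WT liver (log2 fold change -0.67, adjusted p = 0.00078, under the required size). Cxcl12 started in the 8694 bp region chr6:117116489-117125182, whose nearest neighbour lay 100265 bp away. The median log2 fold change of the 340 genes was 0.04, against 0.03 over all genes tested.

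**Figure D5:**
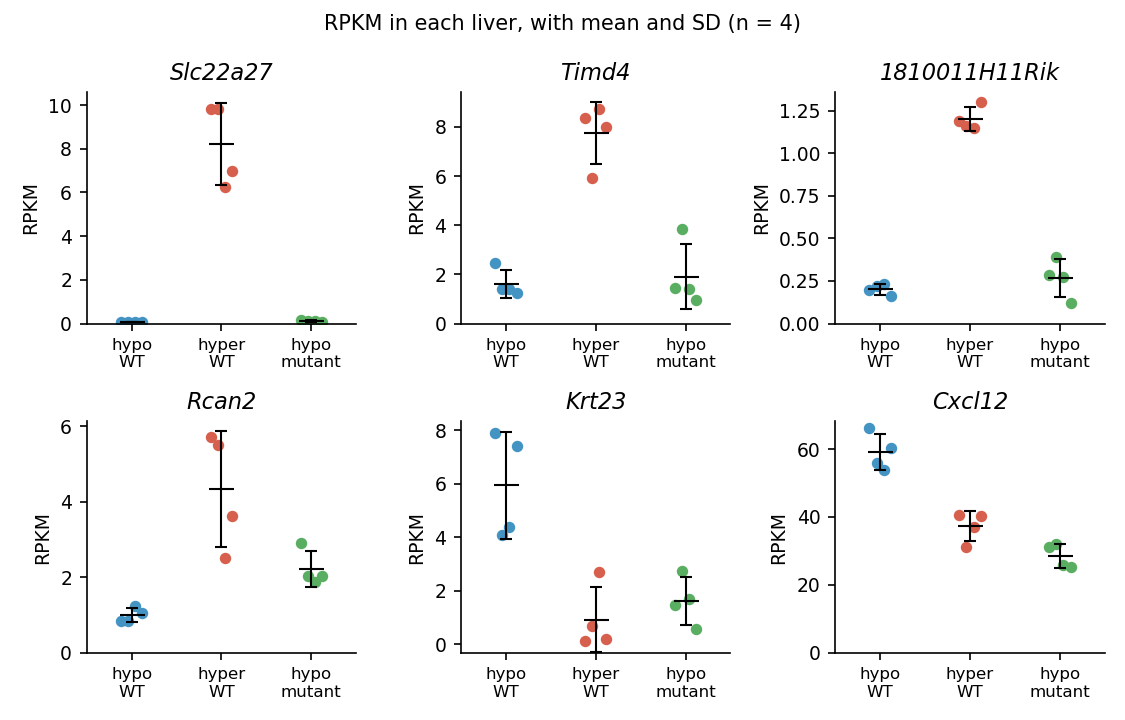
RPKM of 6 genes that start in isolated regions, 1 point per liver, with the mean and SD of 4 livers in hypothyroid WT, hyperthyroid WT and hypothyroid L-NCORdeltaID (mutant) mice. Slc22a27, Timd4, 1810011H11Rik and Rcan2 are highest after T3, and Krt23 and Cxcl12 are highest in hypothyroid WT livers.

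The 868 isolated regions that hold no gene start were nearest to 765 genes of the RPKM table, at a median of 167061 bp. These genes were mostly silent, with a median of 0.0395 RPKM in hypothyroid WT, 0.0498 in hyperthyroid WT and 0.0488 in L-NCORdeltaID liver, against 2.35, 2.91 and 2.51 RPKM for the nearest genes of other regions under 15 kb. Of the 765 genes, 185 (24.2%) were listed at 0 in all 12 libraries, against 5.58%. For 504 of them (65.9%) the own start lay in no acetylated region, against 29.9%. The rule fixes part of this share, since a gene start within 100 kb of such a region cannot lie in another acetylated region. The share and the low levels of these genes are thus a description and were not tested. After T3, 29 of 344 tested genes rose (8.43%) and 13 fell (3.78%), near the shares over all genes (8.28% and 3.47%). The 29 include Nebl, described below, which passed the filter only through the hyperthyroid libraries where it is high. Such genes were not counted here, so the share without them is not given. In L-NCORdeltaID liver 1 of 334 rose and 0 fell.

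By size, the nearest genes that rose most after T3 were Nebl and Zfp386. Nebl, an actin-binding protein, was at 0.009 to 0.065 RPKM in hypothyroid and at 2.92, 0.975, 0.913 and 1.47 in hyperthyroid WT (log2 fold change 3.46, given without a p-value since it too was tested only through the hyperthyroid libraries), and the isolated region chr2:17510850-17512351 lay in its intron, 140740 bp from its start. Zfp386, a zinc finger gene, rose from 1.07 ± 0.106 to 4.09 ± 0.696 RPKM (log2 fold change 1.83, adjusted p = 2.4e-05). Its isolated region chr12:117284948-117288213 began 4386 bp from its start. Those that fell most were Raet1d, a ligand of the NKG2D receptor with close paralogs, and Vldlr, the very low density lipoprotein receptor. Raet1d was at 20.1, 6.61, 7.67 and 16.7 RPKM in hypothyroid and at 0.346 to 1.04 in hyperthyroid WT (log2 fold change -4.20, SE 0.42, adjusted p = 7.9e-05), and its region lay 58485 bp away. Vldlr was at 1.25, 0.599, 0.996 and 2.11 RPKM in hypothyroid and at 0.061 to 0.377 in hyperthyroid WT (log2 fold change -2.31, SE 0.41, adjusted p = 0.0018). Its isolated region chr19:27291276-27294672 began 302 bp inside the gene. In all 4 genes the groups did not overlap, which was required by the rule that named them and is no further result. For Nebl the filter on low values also fixed it.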

How the data were processed

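Male mouse livers were profiled by ChIP-seq for H3K27Ac and H3K9Ac and by RNA-seq (12 libraries, 4 per group). The authors aligned reads to mm9 with STAR, called acetylated regions with HOMER and deposited 1 list of the collected regions, as chromosome, start and end. The authors deposited RNA-seq as RPKM per RefSeq transcript, from HOMER. Differential calls of the study used DESeq2 and were not used here, and neither were the other ChIP-seq data. The table had 0 unused columns of single samples.

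Regions were placed against GENCODE M1 (37310 genes) on the same genome build. A gene start was the 5' end of the gene. The first listed transcript stood for each of 23813 genes, of which 21719 were placed, by symbol, synonym or RefSeq number, and 1 unnamed transcript was left out. Values were compared as log2(RPKM + 0.1) with limma 3.58.1 (R 4.3.3), using a trend in the variance and p-values adjusted after Benjamini and Hochberg. A gene was tested when 4 or more of the 8 libraries reached 0.1 RPKM. Calls required an adjusted p below 0.01 and, for T3, a change of more than 1 on the log2 scale. The T3 comparison was simulated with normal noise for 13941 genes, of which 200 were changed by 2 on the log2 scale. Of the changed genes 96.5% were recovered, and 2 unchanged genes were called. The changed genes were drawn only from those with a positive mean log2(RPKM + 0.1) in hypothyroid WT. The recovered share thus does not cover lower genes or smaller changes. The p-values cover the spread between livers.

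Genes named were, per comparison and direction, the 4 with the largest called change (the 2 largest among nearest genes), at least 1 RPKM and no overlap between groups, the 6 most highly expressed, and listed genes that start in an isolated region. Regions named were the extremes and those next to the limits of the rule. Members and lists were chosen with earlier results of these data known. Alternatives were other distances (50 and 200 kb), protein-coding genes, autosomes, other transcripts, pseudocounts, filters, scalings and fits, and each library left out. The start of any transcript, the omission of regions next to unknown sequence, of genes whose transcripts start elsewhere and of genes under 0.1 RPKM in every hypothyroid library were chosen after the data were seen. Python 3.11.15 was used for all other steps.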

Additional observations from a re-analysis of the deposited data

Results flagged for a closer look

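Among 48 sets of 4 libraries (each named gene in each group), 2 had a library that stood far from the other 3, about what chance gives at 1 in 20. Timd4 was at 2.44 RPKM in hypothyroid WT replicate 1, with the other 3 at 1.23 to 1.39. Rcan2 was at 2.91 RPKM in L-NCORdeltaID replicate 1, with the other 3 at 1.88 to 2.04. The T3 call of Timd4 was kept without hypothyroid WT replicate 1.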

How the results depend on the processing

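The number of isolated regions was 2983 with neighbours within 50 kb and 554 within 200 kb, by construction. It was 1265 with no limit on length, 1177 on autosomes and 1235 without regions next to unknown sequence. The share with a gene start was 35.1% at 50 kb, 27.1% at 200 kb, 34.2% for starts within 1 kb of an edge and 34.4% for the start of any transcript. The median distance to a gene start was 17498 bp at 50 kb, 29915 bp at 200 kb and 71530 bp for protein-coding genes. The median level in hypothyroid WT was 1.0025 RPKM for the highest transcript, 1.49 for genes past the filter and 0.817 on autosomes, and 0.870 to 0.949 without 1 library.

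Genes in isolated regions that rose after T3 numbered 6 with a pseudocount of 1, 13 with a mean of at least 1 RPKM, 13 with the median of gene ratios and 15 to 23 without 1 library, the lowest being without hyperthyroid WT replicate 3. Those that fell numbered 2 with a pseudocount of 0.01, 2 with the median of gene ratios, 2 with starts within 1 kb of an edge (Vldlr joining) and 0 to 2 without 1 library. In L-NCORdeltaID liver 1 gene rose with the highest transcript (Rcn2), 2 fell with all 12 libraries in 1 fit, and 4 rose and 4 fell at an adjusted p under 0.05. Without 1 library 0 rose and 1 fell in each fit. With the replicate number as a block, 22 genes rose and 0 fell after T3, and 0 rose and 1 fell in L-NCORdeltaID liver. Correlations of deviations between same-numbered libraries were -0.12 to 0.17, so the numbers did not pair the livers. The causes of these changes were not tested. The list holds no read numbers, so precision of the region calls was not assessed, and the shallower hyperthyroid libraries limit values under about 0.1 RPKM.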
